A study of Mus musculus with 18 samples.

Results

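The 8 genes Cdsn, Cox6a2, B4galnt2, Cass4, Cyb5r2, Fev, Avil and P2rx3 were barely read in mRNA from cholinergic neurons of normal mice and were abundant in that of mice with a mutant glycyl-tRNA synthetase. They are 8 of the 38924 genes in the deposited tables. They were chosen by their levels in the Cre P278KY and Cre WT libraries described next, with classical stress response targets left out, so that their difference between these 2 groups is a description and carries no test. RNA bound to tagged ribosomes was sequenced from the spinal cord of 18 mice, all 8 weeks old and of the mixed background labelled B6;CASTxB6.129. Every mouse carried 1 copy of the RiboTag allele, from which Cre recombinase makes the ribosomal protein Rpl22 with a haemagglutinin tag, and tagged ribosomes were then captured with a rabbit antibody against haemagglutinin. Cre P278KY mice (n = 3) had 1 copy of Chat-Cre and 1 copy of the P278KY allele of Gars, and Cre WT mice (n = 4) had Chat-Cre and normal Gars. NoCre P278KY mice (n = 6) had the P278KY allele without Cre, and NoCre WT mice (n = 5) had neither. Each library is taken as 1 mouse, although some libraries of a group share a title number whose meaning is not given. Among them are Cre P278KY replicates 1 and 3. Without Cre no ribosome should carry the tag, so the NoCre libraries hold the RNA that the pull-down brings along from all cells of the cord. Chat-Cre is active wherever the choline acetyltransferase gene is, so it marks all spinal cholinergic neurons and not the motor neurons alone, whereas the P278KY allele is present in every cell of the mouse. The working description of the genes as switched on only in mutant cholinergic neurons held in part. Each of the 8 was also read in some libraries without Cre, and Avil and P2rx3 were not near 0 in 1 of the Cre WT libraries.

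Several of the 8 genes are best known from other tissues. Cdsn encodes corneodesmosin, which glues together the dead cells of the outer skin. Cox6a2 encodes the heart and skeletal muscle form of a subunit of cytochrome c oxidase, the last enzyme of the respiratory chain, and Cyb5r2 an enzyme that passes electrons from NADH to cytochrome b5. B4galnt2 encodes a glycosyltransferase that adds N-acetylgalactosamine to sugar chains and makes the Sda blood group antigen. Cass4 encodes a scaffold of the Cas family, which works at focal adhesions. Fev, also called Pet1, is a transcription factor of the ETS family that is required for the identity of serotonin neurons in the hindbrain. Avil encodes advillin, an actin-binding protein of the villin and gelsolin family found in peripheral sensory neurons, and P2rx3 a subunit of ATP-gated ion channels of pain-sensing neurons. Gars makes the enzyme that charges tRNA with glycine, and dominant changes in it cause an inherited neuropathy of motor and sensory axons. Uncharged tRNA and stalled ribosomes are known to switch on the integrated stress response (ISR), in which the factor Atf4 raises genes for amino acid supply.

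The 3 Cre P278KY libraries held 15461487 to 18944805 counts, of which 2.16% to 4.88% were mitochondrial ribosomal RNA. The 4 Cre WT libraries held 14659532 to 24028695 counts with 1.36% to 3.36%. The 6 NoCre P278KY libraries held 9876870 to 14450218 counts with 24.2% to 38.6%, and the 5 NoCre WT libraries 8177817 to 11480463 counts with 31.8% to 53.8%. Levels are given as CPM, counts per 1000000 of the library size scaled by the TMM method, or as deposited TPM, which also divides by transcript length and is used wherever genes are compared with each other. Chat, the marker of the tagged neurons, had 105 ± 12.6 CPM in Cre P278KY, 121 ± 43.9 CPM in Cre WT, 2.88 ± 0.616 CPM in NoCre P278KY and 7.89 ± 2.92 CPM in NoCre WT (SD). Its Cre genotype difference did not pass the test (log2 fold change −0.17, edgeR adjusted p = 0.811). Gars itself had 273 ± 23.1 CPM in Cre P278KY (n = 3) and 139 ± 29.3 CPM in Cre WT (n = 4), a log2 fold change of 1.01 (edgeR adjusted p = 0.0219), a call that was lost without any 1 of the Cre P278KY replicates or without Cre WT replicate 4 (adjusted p up to 0.152). The P278KY change alters the protein and not necessarily the mRNA level, so Gars counts do not check the genotype labels. By the index sequences and sample numbers in the labels, the libraries fall into a first set of 10 and a second set of 8. All Cre P278KY libraries and Cre WT replicates 1 and 2 are in the first set and Cre WT replicates 3 and 4 in the second. In whole-tissue pull-downs, fewer cells of a type and less RNA per cell cannot be told apart.

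The promoter windows of 2 of the genes are shown because they hold a motif through which the ISR acts on its known target genes. The windows are those of the RefSeq table of build GRCm38.p6, from 250 bases before to 50 bases after the transcription start, written 5′ to 3′ on the strand of the gene. Capitals mark matches to TGATGNAA, the core of the composite C/EBP-ATF element through which Atf4 acts at many genes. Avil lies on the plus strand, window chr10:127000459-127000758, and Cyb5r2 on the minus strand, window chr7:107757983-107758282.

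Avil: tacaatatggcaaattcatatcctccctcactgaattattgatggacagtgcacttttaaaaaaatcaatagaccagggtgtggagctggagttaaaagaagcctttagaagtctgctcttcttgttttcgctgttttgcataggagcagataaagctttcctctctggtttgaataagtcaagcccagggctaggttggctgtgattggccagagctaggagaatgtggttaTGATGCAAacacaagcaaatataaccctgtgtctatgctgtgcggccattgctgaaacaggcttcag

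Cyb5r2: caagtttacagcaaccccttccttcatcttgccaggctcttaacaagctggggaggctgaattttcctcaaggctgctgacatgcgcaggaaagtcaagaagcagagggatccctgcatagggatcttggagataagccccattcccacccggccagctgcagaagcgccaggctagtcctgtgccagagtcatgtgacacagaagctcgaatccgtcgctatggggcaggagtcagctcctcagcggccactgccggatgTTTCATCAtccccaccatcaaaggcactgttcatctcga

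In Avil the match is TGATGCAA on the strand of the gene, beginning 17 bases before the start. In Cyb5r2 it is TTTCATCA, which is the motif on the other strand, beginning 11 bases after the start. The table held promoters of 6 of the 8 genes, with 7 windows (not Cox6a2 and P2rx3). The motif was in 2 of these 7 windows, against 3.97% of all 32851 windows, and in 2 of the 6 genes, against 4.51% of 27025 genes. None of the 7 windows held TGACGTCA (the cAMP element, in 1.79% of all windows), TGANTCA (the AP-1 element, 7.81%), CACGTG (the E-box, 7.15%) or TATAAA (the TATA box, 13.6%), each searched on both strands. These matches are descriptions of letters, and no binding was measured.

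Each gene had at least 122 counts in every Cre P278KY library. Cdsn had 791, 904 and 566 counts in Cre P278KY replicates 1 to 3, against 2, 2, 0 and 5 counts in Cre WT replicates 1 to 4. At 37.4, 36.8 and 38.8 CPM the mutant libraries differed by 1.05-fold, and by 1.63-fold in deposited TPM. Cdsn was read in 63 counts over the 6 NoCre P278KY libraries and 7 counts over the 5 NoCre WT libraries. Cdsn is a protein-coding gene on chromosome 17 (35552128 to 35557180, plus strand, GENCODE M21 on GRCm38). Its mean was 37.7 ± 0.993 CPM in Cre P278KY, 0.126 ± 0.0918 in Cre WT, 0.780 ± 0.423 in NoCre P278KY and 0.157 ± 0.180 in NoCre WT. The read ratio of Cre P278KY to Cre WT was 352, with a 95% interval of 185 to 770 that covers counting error only. The lowest Cre P278KY library was 29.3 times the highest of the 15 others, the widest gap among the 8 genes.

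Fev had 335, 300 and 192 counts in the Cre P278KY libraries, against 0, 0, 0 and 4 counts in the Cre WT libraries, where Cre WT replicate 4 alone was above 0. Fev lies on chromosome 1 (74881509 to 74885419, minus strand). Its mean was 13.7 ± 1.88 CPM in Cre P278KY and 0.0430 ± 0.0860 CPM in Cre WT, a read ratio of 289 (113 to 1065). Without Cre it averaged 0.624 ± 0.916 CPM in NoCre P278KY and 0.0373 ± 0.0513 CPM in NoCre WT. Genes of the serotonin neurons that Fev is known from went both ways beside it. Tph2, the gene of the brain enzyme that makes serotonin, had 0.344 ± 0.243 CPM in Cre P278KY and 0.826 ± 0.476 CPM in Cre WT (edgeR adjusted p = 0.501), and Slc6a4, the serotonin transporter gene, had 1 count over the 3 Cre P278KY libraries. Gch1 had 3.94 ± 1.46 CPM in Cre P278KY and 1.16 ± 0.827 CPM in Cre WT (log2 fold change 1.78). Slc18a2 had 3.95 ± 1.47 CPM in Cre P278KY and 2.43 ± 2.17 CPM in Cre WT. Of the 12 genes of the serotonin neuron list, 8 were tested, with a median log2 fold change of −0.39. None was called by edgeR (smallest adjusted p = 0.160, for Gch1), 1 had an unadjusted p below 0.05, and DESeq2 called 1. The summed level of the list was 12.4 to 16.1 CPM in Cre P278KY and 9.30 to 17.7 CPM in Cre WT.

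Cass4 had 215, 361 and 159 counts in Cre P278KY, against 0, 0, 2 and 0 counts in Cre WT. Cass4 lies on chromosome 2 (172393794 to 172433757, plus strand). It was the gene closest to absent from the Cre WT libraries, at 11.9 ± 2.44 CPM in Cre P278KY and 0.0152 ± 0.0304 CPM in Cre WT. With 2 reads behind the lower group, the ratio of 514 has a counting interval from 142 to 4255. Cass4 was nevertheless read in the cord without Cre, at 0.824 ± 0.592 CPM in NoCre P278KY and 1.33 ± 1.84 CPM in NoCre WT, where NoCre WT replicate 4 stood at 4.58 CPM with 23 counts. In deposited TPM the NoCre P278KY mean of Cass4 was the higher one, at 0.373 TPM against 0.328 TPM in NoCre WT.

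Cyb5r2 had 215, 202 and 122 counts in Cre P278KY, against 0, 1, 3 and 3 counts in Cre WT. Its gene spans 107748455 to 107758032 on chromosome 7, minus strand. The means were 8.92 ± 1.09 CPM in Cre P278KY and 0.0756 ± 0.0543 CPM in Cre WT, a ratio of 108 (51.9 to 269). Cyb5r2 was also read without Cre, at 0.582 ± 0.443 CPM in NoCre P278KY and 0.959 ± 0.527 CPM in NoCre WT. All 4 Cre WT libraries were below all 5 NoCre WT libraries for Cyb5r2, the 1 gene of the 8 where this held, while 20.7% of 17133 genes behaved in this way. None of the 8 was higher in every Cre WT library than in every NoCre WT library, against 22.5% of all genes.

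B4galnt2 had 164, 239 and 132 counts in Cre P278KY, against 0, 1, 2 and 1 counts in Cre WT. It lies on chromosome 11 (95865943 to 95914891, minus strand). It averaged 8.85 ± 1.00 CPM in Cre P278KY and 0.0465 ± 0.0349 CPM in Cre WT, a ratio of 187 (72.7 to 690). Without Cre the means were 0.116 ± 0.181 CPM in NoCre P278KY and 0.0970 ± 0.172 CPM in NoCre WT. It was also the rarest of the 8 without Cre, with 11 counts over the 6 NoCre P278KY libraries and 3 over the 5 NoCre WT libraries.

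Cox6a2 had 503, 523 and 495 counts in Cre P278KY, against 2, 8, 4 and 6 counts in Cre WT. The gene lies on chromosome 7 (128205435 to 128206387, minus strand). At 26.3 ± 6.67 CPM in Cre P278KY and 0.291 ± 0.253 CPM in Cre WT the ratio was 106 (68.7 to 175), and the means without Cre were 1.56 ± 1.48 CPM in NoCre P278KY and 0.941 ± 1.24 CPM in NoCre WT. Per transcript length it was the most abundant of the 8, at a mean of 73.4 TPM in Cre P278KY.

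Avil and P2rx3 were different from the other 6 in that they were not close to 0 in every Cre WT library. Avil had 309, 387 and 252 counts in Cre P278KY, against 11, 5, 2 and 44 counts in Cre WT. P2rx3 had 462, 856 and 310 counts in Cre P278KY, against 3, 2, 25 and 51 counts in Cre WT. In both genes Cre WT replicate 4 was the highest of its group, at 1.89 CPM for Avil and 2.19 CPM for P2rx3, and it was still below every Cre P278KY library. Avil (chromosome 10, 127000709 to 127020994, plus strand) averaged 15.9 ± 1.33 CPM in Cre P278KY and 0.762 ± 0.795 CPM in Cre WT, a ratio of 21.4 (16.5 to 28.1). P2rx3 (chromosome 2, 84998583 to 85037462, minus strand) averaged 26.0 ± 7.71 CPM in Cre P278KY and 0.826 ± 0.952 CPM in Cre WT, a ratio of 28.1 (22.5 to 35.6). In NoCre P278KY and NoCre WT the means were 0.844 ± 0.943 and 1.76 ± 2.50 CPM for Avil and 1.49 ± 1.22 and 0.943 ± 0.599 CPM for P2rx3. Within the first index set alone, P2rx3 had a fitted log2 fold change of 7.21, against 4.86 over both sets, and Cre WT replicates 3 and 4, of the second set, hold 76 of the 81 Cre WT reads of P2rx3. Within the first set the fitted values of Avil, Cox6a2 and Cdsn were 4.87, 6.23 and 8.05, while Fev and Cass4 had no read in its Cre WT libraries and so give no fold there.

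**Figure D1:**
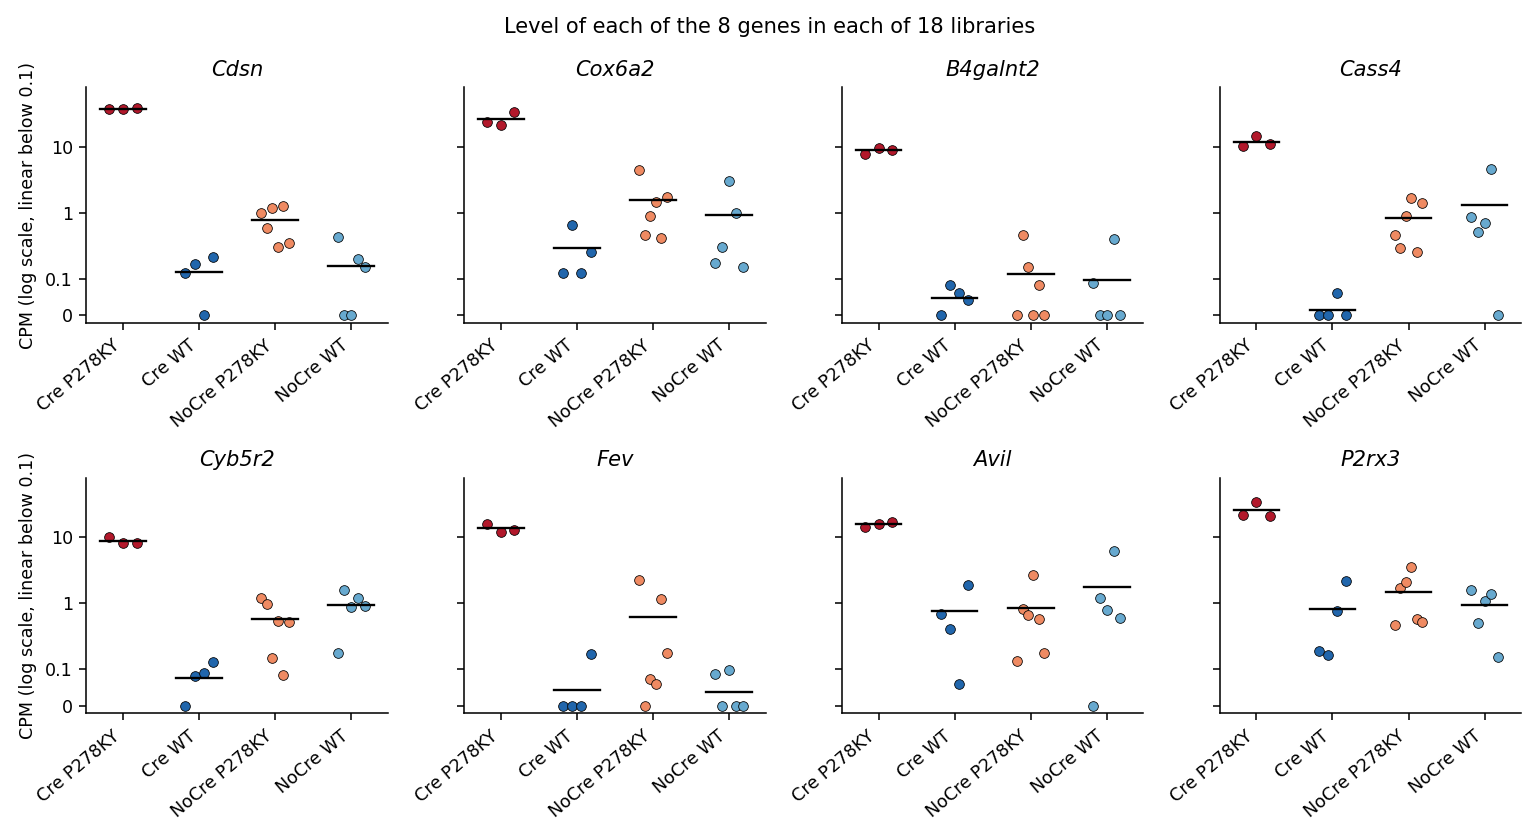
CPM of each gene (y axis, log scale, linear below 0.1) in every library of the 4 groups (points), with the group mean as a bar. The 3 Cre P278KY libraries lie above all 15 others in each panel, and Avil and P2rx3 reach 1.89 and 2.19 CPM in 1 Cre WT library.

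All 8 genes were higher in every Cre P278KY library than in every Cre WT library, which held for 7.45% of the 17133 genes compared and here follows from the choice of the genes. They were also higher than in every NoCre P278KY library (28.3% of genes) and than in all 15 other libraries (3.22% of genes), and both sets of comparisons use the libraries on which the genes were chosen. The gap to the highest other library ranged from 2.22-fold for Cass4 and 2.37-fold for Avil, both set by NoCre WT replicate 4, to 29.3-fold for Cdsn. In deposited TPM, which does not use the TMM factors, the same gap was between 3.36-fold and 21.6-fold, again with all 8 genes above every other library. Every NoCre P278KY library was above every Cre WT library for 2 of the 8, Cdsn and Cass4, which held for 24.2% of all genes.

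The order of the Cre P278KY libraries depended on the scale. In CPM replicate 1 was the highest for 2 of the genes and replicates 2 and 3 for 3 genes each. In deposited TPM replicate 2 was the highest for 8 of 8 genes and replicate 3 the lowest for 7, and Chat had the same order, with 64.1, 69.2 and 40.3 TPM in replicates 1 to 3. Cox6a2 had 23.8, 21.3 and 33.9 CPM in replicates 1 to 3, and 67.7, 79.7 and 72.9 TPM. P2rx3 had 21.9, 34.9 and 21.2 CPM, and 28.7, 54.3 and 17.8 TPM, the widest spread of the 8 on both scales at 1.64-fold and 3.06-fold. Per transcript length the order of mean levels in Cre P278KY was Cox6a2 at 73.4 TPM, P2rx3 at 33.6 TPM, Cdsn at 21.8 TPM, Fev at 15.2 TPM, B4galnt2 at 8.35 TPM, Avil at 8.04 TPM, Cass4 at 5.39 TPM and Cyb5r2 at 4.99 TPM. Chat had 57.9 ± 15.4 TPM (SD, n = 3) in the same libraries, so the mean of Cox6a2 lay above that of the gene whose promoter drove the Cre.

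Going through the whole table for genes below 1 CPM in every Cre WT library and above 5 CPM in every Cre P278KY library gave 10 of the 38924 genes, all protein coding, and 3 genes in the opposite direction. Of the 10, 6 were Cdsn, Cox6a2, Fev, Cass4, Cyb5r2 and B4galnt2. The other 4 were Fgf21, Adm2 and Gdf15, which encode secreted proteins of the stress response, and Ostn, which encodes the secreted peptide osteocrin. Avil and P2rx3 missed these limits through Cre WT replicate 4 alone, and without that library 13 genes met them, with all 8 genes among them. Within the first index set 17 genes met them, again with all 8.

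The comparison with NoCre P278KY mice shows how much of each transcript came down without a tag in mice of the same genotype. The NoCre P278KY mean was 1.31% of the Cre P278KY mean for B4galnt2 and 2.07% for Cdsn, below the 2.74% of Chat. It was 4.54% for Fev, 5.31% for Avil, 5.73% for P2rx3, 5.93% for Cox6a2, 6.52% for Cyb5r2 and 6.91% for Cass4. Single libraries moved some of these shares by over 1.5 times. Without NoCre P278KY replicate 1, which held 34 of 51 reads, Fev was at 2.16%, below the 2.70% of Chat, and Cox6a2 at 3.78%. Without replicate 4 Avil was at 2.99% and without replicate 2 B4galnt2 was at 0.526%. As read ratios, B4galnt2 was 64.4 times (35.7 to 130) and Cdsn 47.5 times (37.0 to 62.0) as high with Cre as without, Chat 37.0 times (32.4 to 42.4), and the other 6 genes 14.3 to 21.5 times. Without NoCre P278KY replicate 1 the ratio of Fev was 52.2 (32.4 to 90.1), against 37.9 (32.7 to 44.2) for Chat, so the place of Fev below Chat rests on that library. Without it the ratio of Cox6a2 was 27.7 (21.3 to 36.6), and without replicate 4 that of Avil was 30.2 (21.4 to 44.1). Chat is a limited yardstick here, because edgeR called it lower in NoCre P278KY than in NoCre WT (means 2.88 and 7.89 CPM). In the WT groups the share of Chat without Cre was higher, and lay between the shares of Fev and Cass4 given above. The place of a gene above or below Chat therefore does not show how far it depended on the tag. Whether the untagged reads came from cholinergic neurons or other cells cannot be told apart in these libraries.

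**Figure D2:**
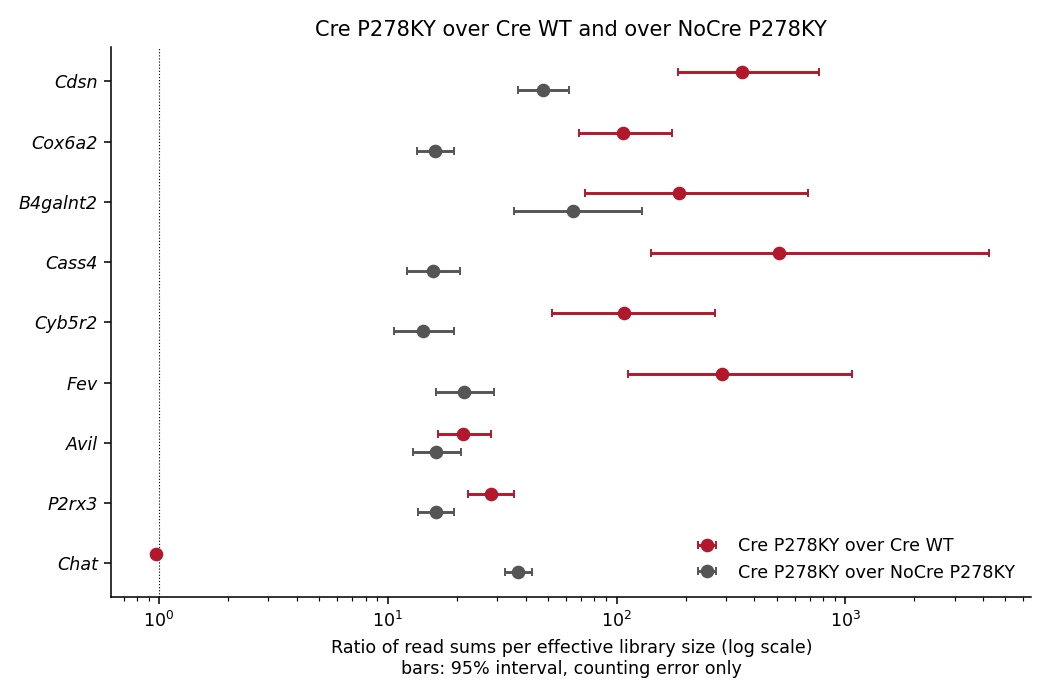
Ratio of reads in Cre P278KY to Cre WT (red) and to NoCre P278KY (grey) for the 8 genes and Chat (x axis, log scale), with 95% intervals for counting error. Chat sits at 0.974 against Cre WT and at 37.0 against NoCre P278KY, and Cass4 has the widest interval because Cre WT holds 2 of its reads.

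Only the genotype difference among NoCre libraries rests on mice that had no part in the choice of the genes. With NoCre libraries alone, Avil and P2rx3 had enough reads to pass the filter on low counts. The other 6 genes did not pass it there. They entered the fit over 18 libraries because the 3 Cre P278KY libraries, on which they were chosen, meet its filter on their own. The values of these 6 rest on few NoCre reads and are given as a description. Their standard errors and p-values, here and below, are not read as tests. In that fit none of the 8 was called at an adjusted p of 0.05 by edgeR, as was true of nearly all genes (0.0233% of 17133 called, namely Chat, Nefl, Chodl and Ahnak2, all lower in NoCre P278KY). Unadjusted edgeR p-values were below 0.05 for 2 of the 8 and for 1163 of the 17133 genes tested, and DESeq2 called 28 genes. The 2 genes were Cdsn and Fev, both higher in NoCre P278KY and both among the 6 that did not pass the filter with NoCre libraries alone. Cdsn had 15, 10, 16, 5, 15 and 2 counts in the 6 NoCre P278KY libraries, against 5, 0, 0, 1 and 1 counts in the 5 NoCre WT libraries. Every NoCre P278KY library thus held some Cdsn, and the lowest of them, at 0.305 CPM, was below the highest NoCre WT library, at 0.436 CPM. The log2 fold change of Cdsn was 2.24 (SE 0.67, edgeR adjusted p = 0.647). It stayed between 1.86 and 3.45 over 19 other settings, with adjusted p from 0.194 upward, and all of these settings also held Cre P278KY libraries. Within the first index set it was 1.96 (adjusted p = 0.588). Within the second set, which holds no Cre P278KY library, Cdsn did not pass the filter on low counts.

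Fev was also higher in NoCre P278KY, on few libraries. It had 34, 0, 1, 1, 14 and 1 counts in NoCre P278KY, against 1, 0, 1, 0 and 0 counts in NoCre WT. Replicates 1 and 5 held nearly all of these reads, at 2.26 and 1.17 CPM. The log2 fold change was 3.58 (SE 1.29, edgeR adjusted p = 0.687), 3.87 within the first index set (adjusted p = 0.845). The other 6 genes had log2 fold changes of 0.76 for B4galnt2, 0.70 for Cox6a2, 0.69 for P2rx3, −0.61 for Cass4, −0.66 for Cyb5r2 and −0.85 for Avil, with edgeR adjusted p between 0.806 and 0.882. No gene of the 8 had NoCre P278KY libraries all above the NoCre WT libraries, which 0.339% of genes did.

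**Figure D3:**
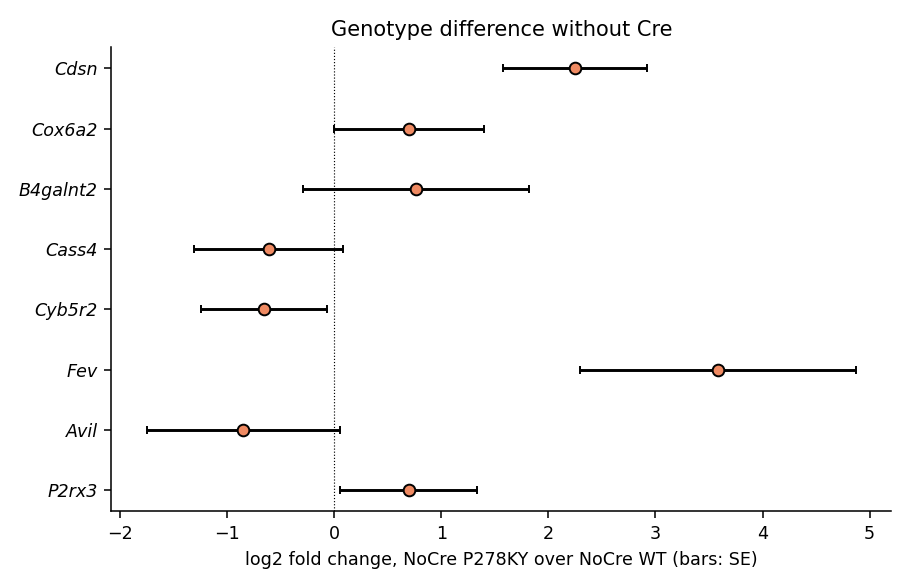
Log2 fold change of the 8 genes between NoCre P278KY and NoCre WT (x axis), with the standard error as bars. Cdsn at 2.24 and Fev at 3.58 lie farthest from 0, and no gene was called after adjustment. All but Avil and P2rx3 passed the filter on low counts only through the Cre P278KY libraries.

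The highest levels of Avil and P2rx3 outside the Cre P278KY group went together with transcripts of sensory neurons. Scn10a, which encodes a sodium channel of pain-sensing neurons, had 7.09 CPM in Cre WT replicate 4, 9.83 CPM in NoCre P278KY replicate 4 and 7.56 CPM in NoCre WT replicate 4, and at most 3.97 CPM in the 15 other libraries. NoCre WT replicate 4 is scaled up by its TMM factor, and in counts its Scn10a (38) was not above that of NoCre WT replicate 3 (40). Avil was the highest of its group in replicate 4 of Cre WT, NoCre P278KY and NoCre WT, at 1.89, 2.69 and 6.17 CPM. For P2rx3 this held in Cre WT replicate 4 (2.19 CPM) and NoCre P278KY replicate 4 (3.54 CPM) but not in NoCre WT, where replicate 1 was highest (1.57 CPM) with no Scn10a read. In the Cre P278KY libraries Scn10a had no read at all, while Avil stood at 14.6 to 17.3 CPM and P2rx3 at 21.2 to 34.9 CPM. Of the 25 sensory neuron markers, 7 had no read in any Cre P278KY library, namely Scn10a, Mrgprd, Mrgpra3, Mrgprx1, Prdm12, Runx3 and Kcnk18. Others were read there, among them Tac1 at 8.01 ± 1.83 CPM in Cre P278KY and 4.99 ± 2.98 CPM in Cre WT, and Prrxl1 at 1.05 ± 0.104 CPM in Cre P278KY and 0.297 ± 0.126 CPM in Cre WT (log2 fold change 1.87, edgeR adjusted p = 0.142). The summed level of the list was 52.5 to 55.1 CPM in Cre P278KY, 45.2 to 91.6 CPM in Cre WT, 52.3 to 104 CPM in NoCre P278KY and 61.8 to 83.0 CPM in NoCre WT. Ntrk3, a neurotrophin receptor gene that motor neurons also express, alone had 26.9 to 32.4 CPM of the Cre P278KY sums. Of the 9 list genes tested between Cre P278KY and Cre WT none was called by edgeR (smallest adjusted p = 0.0877, for Scn10a, with a log2 fold change of −8.63), 2 had an unadjusted p below 0.05, and DESeq2 called 1. The median log2 fold change of the 9 was 0.14. The part of sensory neuron RNA in the Avil and P2rx3 levels outside Cre P278KY was not tested.

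The highest Cox6a2 levels outside Cre P278KY went together with skeletal muscle transcripts. In NoCre P278KY replicate 1 it had 66 counts (4.39 CPM) and in NoCre WT replicate 3 it had 31 counts (3.08 CPM), the highest of their groups. These 2 libraries had 760 and 774 CPM summed over 18 skeletal muscle genes, against 53.8 to 259 CPM in the 9 other NoCre libraries. Cre P278KY had the lowest muscle sums, at 22.7 to 39.7 CPM, against 47.8 to 186 CPM in Cre WT, and the highest Cox6a2. Of the 15 muscle genes tested between Cre P278KY and Cre WT none was called by edgeR (smallest adjusted p = 0.0754, for Myh1), but 12 had an unadjusted p below 0.05 and DESeq2 called 7. Their median log2 fold change was −2.14, and 4 were called within the first index set. The part of muscle RNA in the NoCre levels of Cox6a2 was not tested. For Cdsn the markers of another tissue are those of skin. The summed level of 20 epidermis genes was 73.6 to 100.3 CPM in Cre P278KY and 57.0 to 101.5 CPM in Cre WT, most of it from Jup, a junction gene of many tissues, at 75.5 ± 13.2 and 62.4 ± 15.6 CPM. Of the 20, 5 had no read in any Cre P278KY library (Krt5, Klk5, Krt14, Pkp1 and Pkp3), and Krt5 and Klk5 had none in Cre WT either. Other genes of the outer skin were read at low levels in both groups, such as Krt1 at 2.36 ± 0.852 CPM in Cre P278KY and 2.00 ± 1.39 CPM in Cre WT. None of the 7 tested of 20 epidermis genes was called by edgeR (smallest adjusted p = 0.279) or DESeq2, with 1 at an unadjusted p below 0.05.

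**Figure D4:**
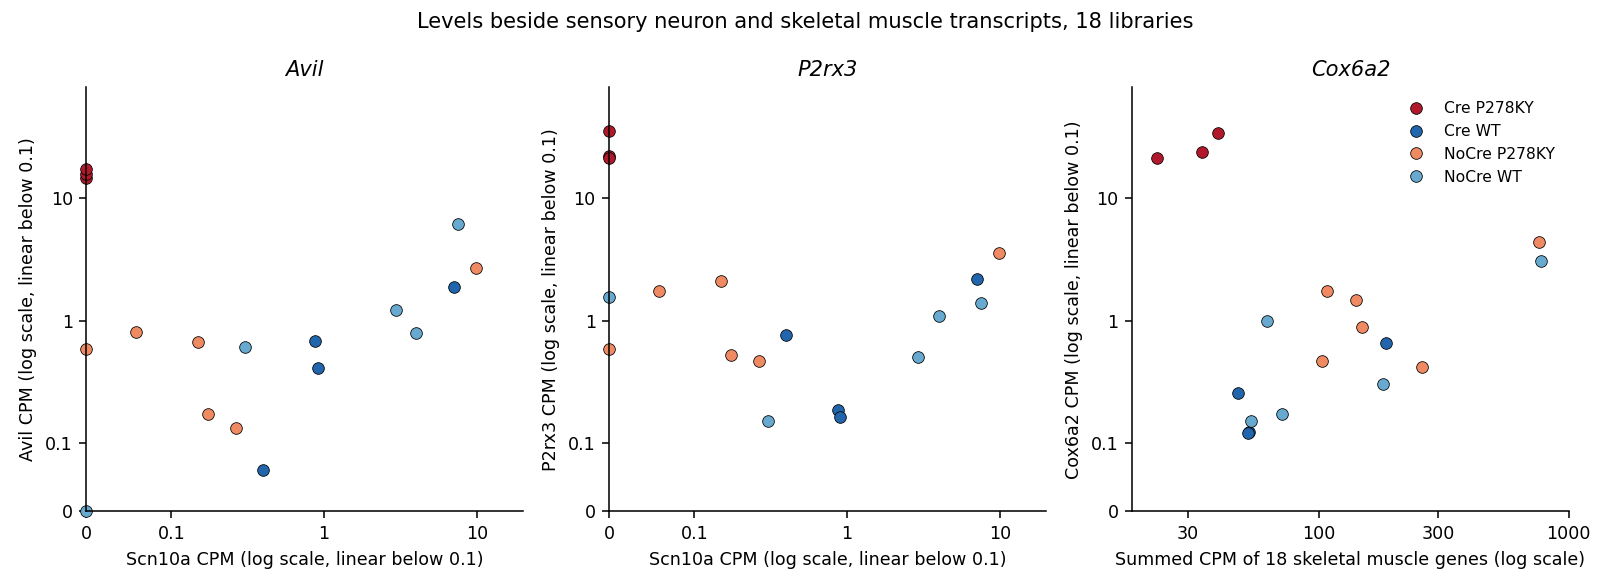
Avil and P2rx3 CPM against Scn10a CPM, and Cox6a2 CPM against the summed CPM of 18 skeletal muscle genes, in 18 libraries coloured by group (log scales, linear below 0.1 for the CPM of single genes). The Cre P278KY points lie at 0 on the Scn10a axis and at the low end of the muscle axis, and at the top of each y axis.

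Among relatives of the 8 genes, 1 reductase was called higher in Cre P278KY and 3 genes were called lower. Between Cre P278KY and Cre WT, edgeR called 2.32% of 14717 genes, 1.22% higher and 1.11% lower in Cre P278KY, with a median log2 fold change of −0.01. Cyb5r1, another cytochrome b5 reductase, was higher at 66.3 ± 4.78 CPM in Cre P278KY (n = 3) and 15.5 ± 6.17 CPM in Cre WT (n = 4), a log2 fold change of 2.13 (edgeR adjusted p = 0.00335) that was called in all 15 other settings. Cyb5r3, the most abundant of the family per transcript length and the form known for keeping haemoglobin reduced in red cells, was lower at 221 ± 17.4 CPM in Cre P278KY and 450 ± 82.4 CPM in Cre WT (log2 fold change −0.99, edgeR adjusted p = 0.0271). That call was lost in 7 of 15 other settings, among them each one without a Cre P278KY replicate and those without Cre WT replicate 1 or 4 (adjusted p up to 0.154). Cyb5r4 and Cyb5rl were not called. In TPM, Cyb5r2 made up 1.90% to 2.24% of the 5 reductases in Cre P278KY and 0% to 0.0226% in Cre WT.

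Among the 7 P2X subunits, P2rx3 made up 46.7% to 64.0% of the summed TPM in Cre P278KY and 0.368% to 5.12% in Cre WT. P2rx5 was lower, at 5.78 ± 0.582 CPM in Cre P278KY (n = 3) and 14.7 ± 2.64 CPM in Cre WT (n = 4), a log2 fold change of −1.31 (edgeR adjusted p = 0.0137). This call was lost in 5 of 15 other settings, among them each one without a Cre P278KY replicate (adjusted p up to 0.0975). P2rx4, P2rx6 and P2rx7 were not called (log2 fold changes −0.54, −0.43 and −0.96), and P2rx2, which can join P2rx3 in 1 channel, was near 0 at 0.133 ± 0.175 CPM in Cre P278KY and 0.0430 ± 0.0860 CPM in Cre WT.

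The common form of the subunit was abundant in both Cre groups. Cox6a1 had 220 ± 44.5 CPM in Cre P278KY (n = 3) and 253 ± 143 CPM in Cre WT (n = 4), a log2 fold change of −0.15 (edgeR adjusted p = 0.890). Of the sum of both forms in TPM, Cox6a2 took 8.42%, 8.96% and 9.53% in the Cre P278KY libraries and 0.0343% to 0.136% in the Cre WT libraries. Of the other muscle forms, Cox8b had 0.0158 ± 0.0273 CPM in Cre P278KY and 0.143 ± 0.0833 CPM in Cre WT, and Cox7a1 was not called (log2 fold change −0.72, edgeR adjusted p = 0.641). None of the 7 tested of 11 other cytochrome c oxidase genes was called by edgeR or DESeq2, with 1 at an unadjusted p below 0.05, while 2 were called with the index set as covariate and 1 within the first index set. None of the 4 tested villin and gelsolin relatives of Avil, the 3 other Cas genes and the 2 tested relatives of B4galnt2 was called by edgeR (1, 0 and 1 at an unadjusted p below 0.05), and DESeq2 called 1 of the villin and gelsolin genes. Of the 19 tested ETS genes beside Fev, Etv1 alone was called, lower at 9.88 ± 1.11 CPM in Cre P278KY and 24.2 ± 5.17 CPM in Cre WT (log2 fold change −1.28, edgeR adjusted p = 0.0222), which was lost in 6 of 15 other settings, among them each one without a Cre P278KY replicate and the one without Cre WT replicate 4 (adjusted p up to 0.193).

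**Figure D5:**
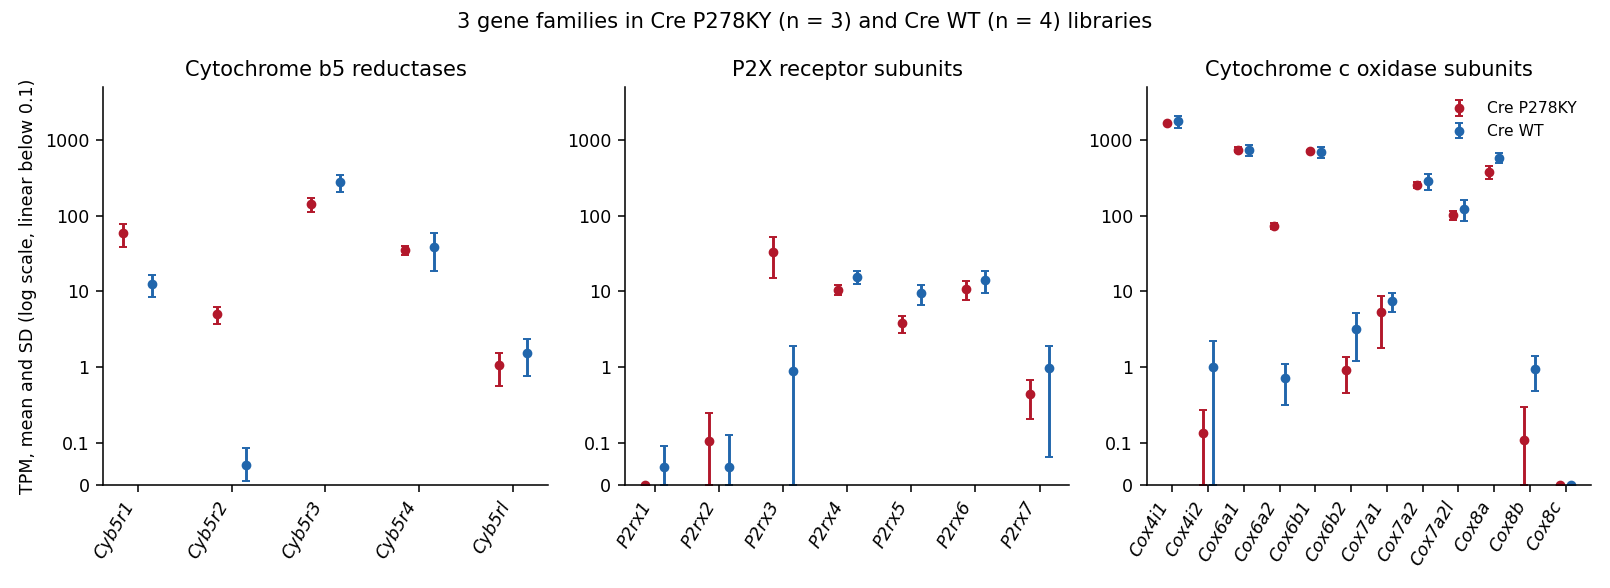
Mean deposited TPM (y axis, log scale, linear below 0.1) of the cytochrome b5 reductases, the P2X subunits and the cytochrome c oxidase subunits in Cre P278KY (red, n = 3) and Cre WT (blue, n = 4), with SD as bars that stop at 0. Cyb5r2, P2rx3 and Cox6a2 differ most within their panels, and Cox6a1 lies at the same height in both groups.

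The genes beside the 8 on the chromosome were compared in the same way. The nearest protein-coding genes that do not overlap them number 16, of which 8 were read enough to be tested, and none was called by edgeR between Cre P278KY and Cre WT (log2 fold changes −0.28 to 0.88, smallest adjusted p = 0.453, 0 at an unadjusted p below 0.05). Ctdsp2, which ends 734 bases from Avil, had 10.5 ± 0.617 CPM in Cre P278KY and 12.7 ± 6.77 CPM in Cre WT. A gene on the opposite strand overlaps 6 of the 8. Without stated strandedness, reads from stretches that the exons of both genes share cannot be told apart. Itgad at Cox6a2, Gm11534 at B4galnt2 and Gm14455 at Cass4 stayed below 1 CPM in both Cre groups. Ppfibp2 at Cyb5r2 had 2.66 ± 1.16 CPM in Cre P278KY and 3.85 ± 2.00 CPM in Cre WT, and Tsfm at Avil had 12.2 ± 2.28 and 9.53 ± 4.34 CPM in the same groups. Ssrp1 at P2rx3 had 66.9 ± 10.6 CPM in Cre P278KY and 41.5 ± 4.51 CPM in Cre WT and was not called (log2 fold change 0.71, edgeR adjusted p = 0.0754). In the same Cre WT libraries P2rx3 had 0.826 ± 0.952 CPM and Avil 0.762 ± 0.795 CPM, far below Ssrp1 and Tsfm.

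The stress response genes left out of the choice were high in the same libraries. Of 32 ISR genes tested between Cre P278KY and Cre WT, 25 were called higher and none lower by edgeR (median log2 fold change 2.26 and 19 to 28 called over the other settings). Over all 14717 genes tested, 1.22% were called higher and 1.11% lower. The lists were chosen with earlier results of these data known, so their counts beside these shares are a description. Of 19 axon injury genes tested, 3 were higher, namely Atf3 (log2 fold change 3.97, edgeR adjusted p = 0.00704), Gap43 (1.09, 0.0163) and Bdnf (1.54, 0.0194). Over the other settings 0 to 5 were called, with 0 without Cre P278KY replicate 1, 1 without Cre P278KY replicate 2 and 2 without Cre P278KY replicate 3, Cre WT replicate 1 or Cre WT replicate 4. Of 10 cholinergic genes 1 was lower, Chodl, a marker of fast motor neurons (log2 fold change −2.53, edgeR adjusted p = 0.0032). Of the 10, 4 had an unadjusted edgeR p below 0.05, DESeq2 called 2, and 1 to 3 were called over the other settings. Calca had 99.7 ± 45.6 CPM in Cre P278KY and 386 ± 183 CPM in Cre WT (log2 fold change −1.90, edgeR adjusted p = 0.0512). No microglia, oligodendrocyte or astrocyte marker was called by edgeR (8, 10 and 10 tested, 0, 6 and 2 at an unadjusted p below 0.05), and DESeq2 called 0, 2 and 1. The median log2 fold changes were −0.06, −1.53 and −1.07. The summed oligodendrocyte level was 716 to 1796 CPM in Cre P278KY and 766 to 4246 CPM in Cre WT, and the astrocyte level was 835 to 1336 CPM in Cre P278KY and 1071 to 1841 CPM in Cre WT. The part of glial RNA in the levels of the 8 genes was not tested.

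Over the 18 libraries, the genes most like the mean profile of the 8 were ranked by Pearson r of log2 CPM, as a description in which the 3 Cre P278KY libraries set the pattern. Atf5, an ISR transcription factor, came first (r = 0.970), followed by Adm2 (0.941), Gdf15 (0.940), Akr1b7 (0.938), Steap1 (0.932), Fut1 (0.929), Slc7a3 (0.925), Ostn (0.916), Hsd17b1 (0.914) and Fgf21 (0.905). The 8 genes themselves had r from 0.841 for Avil to 0.941 for B4galnt2. Akr1b7, an aldo-keto reductase gene, had 2.23 CPM on average in Cre P278KY and 0.0215 CPM in Cre WT, and no read in any NoCre library. Steap1, a metalloreductase gene, had 3.50 CPM in Cre P278KY and 0.0421 CPM in Cre WT.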

How the data were processed

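RiboTag pull-downs with a rabbit antibody to the haemagglutinin tag were sequenced as 18 libraries. The authors used Bowtie2 2.2.0 and RSEM 1.2.12, per the submitters' processing notes. The build, annotation and strandedness are not given in the sources used. The deposited gene tables give RSEM expected counts, estimated per gene by the authors, of which 83.0% to 87.4% per library were whole, and deposited TPM, which the authors' RSEM run scaled by transcript length to a total of 1000000. Expected counts were rounded (change in a library total at most 0.00025%). Genotype contrasts used edgeR 4.0.16 quasi-likelihood tests (filterByExpr, TMM, robust fit) in R 4.3.3 over all genes, with Benjamini-Hochberg adjustment and a threshold of 0.05, and DESeq2 1.42.0 as an alternative. CPM used TMM library sizes over 18 libraries. Read ratios have 95% exact intervals, which cover counting error only. Gene positions came from GENCODE M21. The fit was checked on simulated counts.

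The genes and all lists were chosen with earlier results of these data known. Named genes were the 8 genes, their family members, the nearest genes, up to 4 genes per list with the smallest adjusted p, Gars, Rpl22 and Chat, and the 10 genes most like the mean profile; other markers named were chosen after their values were seen. P-values measure the spread between these libraries. Alternatives were other scalings, no low-count filter, DESeq2, index set as covariate, single index sets, a block on the title numbers, and leaving out each library.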

Additional observations from a re-analysis of the deposited data

Results flagged for a closer look

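Of 24 groups of 4 to 6 libraries, 9 held 1 library far from the others by Dixon's criterion. Chance gives this in about 1 in 20 groups of normally distributed values, a rate that does not hold for counts near 0. Where all other libraries of a group had no read, as for Cass4 and Fev in Cre WT, 1 library with reads always stands apart. Cox6a2 stood apart at 4.39 CPM in NoCre P278KY replicate 1 (66 counts) and at 3.08 CPM in NoCre WT replicate 3 (31 counts), the libraries with the highest muscle sums. Avil stood apart at 2.69 CPM in NoCre P278KY replicate 4 (44 counts) and at 6.17 CPM in NoCre WT replicate 4 (31 counts), and Cass4 at 4.58 CPM in NoCre WT replicate 4 (23 counts). NoCre WT replicate 4 is scaled up by its TMM factor, and its deposited TPM was 1.06 for Avil and 0.75 for Cass4. The other libraries that stood apart rest on few reads. B4galnt2 had 0.464 CPM in NoCre P278KY replicate 2 (8 counts) and 0.398 CPM in NoCre WT replicate 4 (2 counts), Cass4 had 0.0609 CPM in Cre WT replicate 3 (2 counts), and Fev had 0.172 CPM in Cre WT replicate 4 (4 counts).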

How the results depend on the processing

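Between Cre P278KY and Cre WT, 342 genes were called. The count was 148 with library size only, 157 with mitochondrial ribosomal RNA left out of the library size, 972 with DESeq2, 1677 with the index set as covariate, 1343 within the first index set, and 95 to 324 without 1 library (95, 121 and 126 without Cre P278KY replicates 1, 2 and 3). Between NoCre P278KY and NoCre WT, 4 genes were called, with 28 by DESeq2, 2 with library size only, 2 within the second index set, and 2 to 6 without 1 library. The cause of these shifts was not tested. Library size only moved the NoCre median log2 fold change by 0.35. With a replicate block on the title numbers the counts were 1664 and 2. Cox4i1, Cox6a1 and Cox6b1 turned to positive log2 fold changes of 0.67, 0.75 and 0.91 between the Cre groups. Only 1 title number occurs in both Cre groups, so this blocked contrast rests on Cre P278KY replicates 1 and 3 and Cre WT replicates 3 and 4. The former are in the first index set and the latter in the second, so genotype and index set cannot be told apart in it. Libraries of different groups that share a number did not deviate together (r from −0.123 to 0.176 over 11 pairs across index sets), so the numbers are not taken to pair mice between groups. Pairs within a group were not checked. Among them, Cre P278KY replicates 1 and 3 share a number, as do Cre WT replicates 3 and 4, and the meaning of the numbers is not given. The 10 genes off in Cre WT and on in Cre P278KY became 17 within the first index set.

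In the NoCre contrast none of the 8 genes was called under any alternative that could be fitted, and 6 of the 8 did not pass the filter when the NoCre libraries were fitted alone. Cdsn stayed positive in all. Fev had log2 fold changes from 0.30, under the replicate block, to 4.09. Avil and Cass4 turned positive with library size only or without NoCre WT replicate 4, and Cass4 also under the block. Cox6a2 turned negative under the block, within the second index set and without NoCre P278KY replicate 1, P2rx3 under the block and B4galnt2 without NoCre P278KY replicate 2. The fold changes of the 8 genes between Cre P278KY and Cre WT kept their direction, with Avil between 3.90 and 5.57 and P2rx3 between 3.86 and 7.22, and few Cre WT reads limit the others. Under the block 8 oligodendrocyte, 5 astrocyte and 3 cytochrome c oxidase genes were called between the Cre groups, where genotype and index set cannot be told apart.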
